A study of Mus musculus with 21 samples.

Results

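The comparison described here sets 3 libraries of mouse embryonic stem cells collected at day 3 of differentiation with vitamin B6 against 3 libraries of the same line in standard culture. These 6 libraries were taken by their names in the deposited tables, out of 21 libraries in 7 groups of 3. All of them come from E14, a line of mouse embryonic stem (ES) cells. The ES group was kept in standard culture with no treatment, and the VB6 group was differentiated in 20 µM pyridoxine, the alcohol form of vitamin B6. The 3 vehicle libraries of day 3, differentiated without added pyridoxine, serve below as the control for the vitamin. The other 4 groups (vehicle and VB6 at days 5 and 7) entered the fit and are used here for levels at later days. The series title names glycolysis and lactylation of histone H3 as the route by which vitamin B6 would act on endoderm formation. The labels say neither how differentiation was begun nor that libraries within a group stem from separate cultures. The p-values therefore measure the spread between these libraries, which may be technical. All libraries are of 1 cell line.

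ES cells in standard culture resemble the epiblast of the blastocyst before implantation, a condition called naive pluripotency. It is held by a network of transcription factors (Esrrb, Tfcp2l1, Klf4, Nanog and others) and by the cytokine LIF, which acts through the receptor chains Lifr and Il6st and the transcription factor STAT3. When that support ends, the naive factors are lost within days while Pou5f1 stays on, and genes of the formative epiblast such as Fgf5, Otx2 and Dnmt3b come up before cells enter the germ layers. Pyridoxine enters this picture as the precursor of pyridoxal phosphate, the cofactor of enzymes that handle amino acids, including serine and glycine.

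Total expected counts per library were 17264394 to 21629730 with VB6, 18311471 to 18641851 in ES cells and 17211701 to 19554075 with vehicle. Fragment length, derived from the deposited values, was alike, at 306 to 312 nt with VB6, 303 to 311 nt in ES cells and 307 to 315 nt with vehicle. ES replicate 1 stood apart from the other ES libraries, with a chi-square per gene of up to 14.99 between ES libraries against at most 3.13 between VB6 libraries. The mean GC content of the reads' genes was 48.27 to 48.31% with VB6 and 48.84 to 49.39% in ES cells, without overlap. Of the marker lists, the 5 ES markers (Pou5f1, Sox2, Nanog, Zfp42 and Esrrb) were all detected, with summed levels of 2510 to 2834 CPM (counts scaled to library size) in ES cells and 1135 to 1158 CPM with VB6. The 5 fibroblast and feeder markers summed to 23.2 to 28.8 CPM in ES cells and 23.8 to 27.6 CPM with VB6, most of it Thy1, with Col3a1 and Postn at 0 counts in both groups. The 5 trophoblast markers summed to 0.0522 to 0.419 CPM in ES cells and 0.481 to 0.889 CPM with VB6. In bulk RNA, fewer cells of a type and less RNA per cell cannot be told apart.

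Between VB6 day 3 and ES cells 12348 of 18901 genes tested passed the threshold, 65.3% of them. Of these, 6276 were higher (33.2%) and 6072 lower (32.1%), so that 50.8% of the calls were higher. The threshold is an adjusted p under 0.05 in edgeR's quasi-likelihood test, and genes past it are said below to have risen or fallen. The size of change varied widely, with 2592 genes (13.7%) higher and 2624 (13.9%) lower by at least 1 on the log2 scale, and 1078 (5.7%) higher and 914 (4.84%) lower by at least 2. Because most genes passed, a list in which most members changed is near the background, and each count below is to be read against 33.2% higher and 32.1% lower. The median log2 fold change over all genes was 0.02. On the TPM scale (transcript abundance adjusted for length) it was -0.10, and 37.3% of calls were then higher, so the direction of small changes depends on the scale. These libraries differ from ES cells both in 3 days out of standard culture and in pyridoxine, which cannot be told apart in this comparison. VB6 is therefore set against vehicle further on, for a part of the genes. Values given without vehicle do not separate the days from the pyridoxine.

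**Figure D1:**
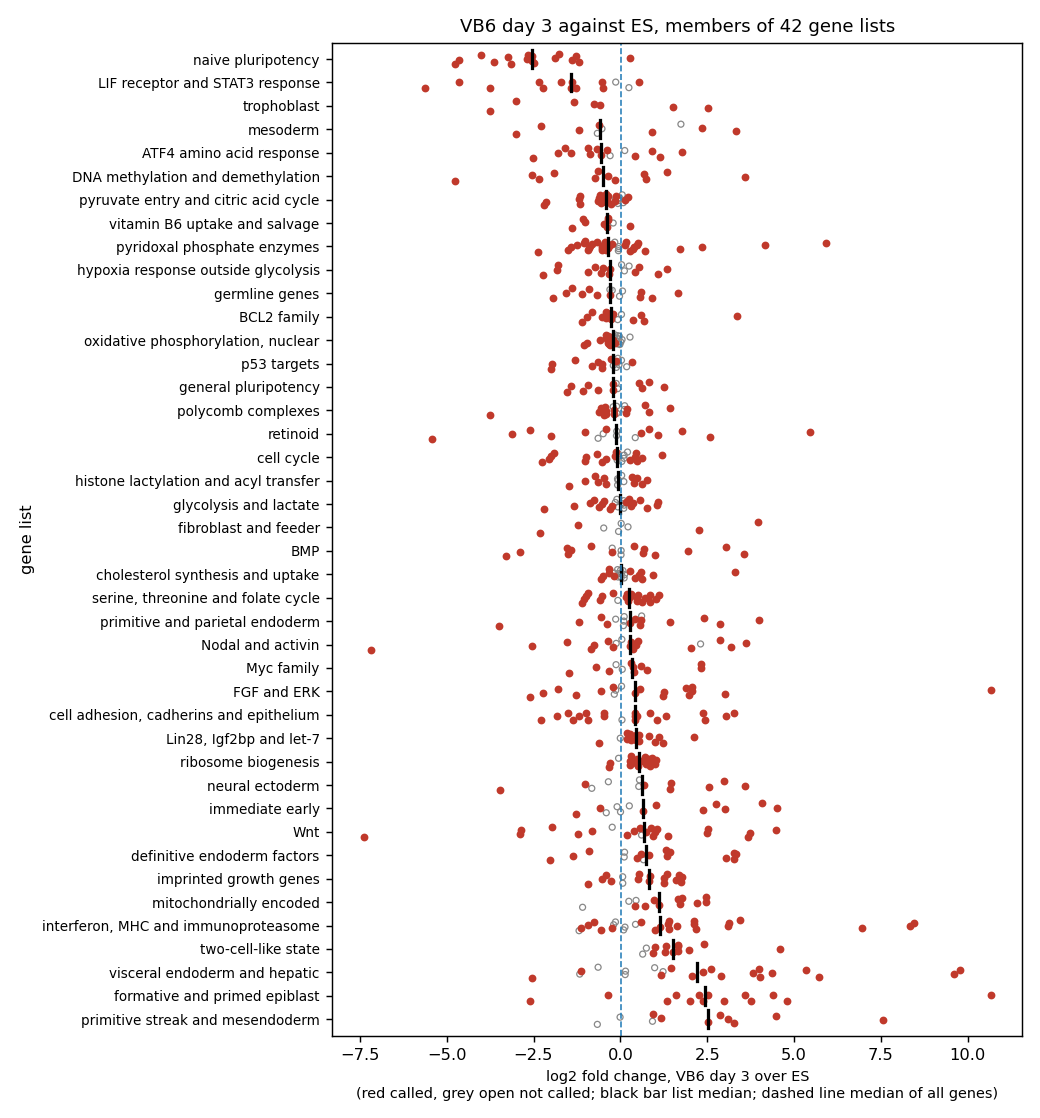
Each point is the log2 fold change of 1 gene, VB6 day 3 over ES (horizontal axis), in 1 of 42 gene lists (rows), ordered by the list median (black bar). Filled red points passed the threshold and open points did not, the dashed line is the median of all genes, and genes with at most 3 counts in a group are at their count ratio or its bound. Genes with at most 3 counts in both groups are not drawn, and a list that holds such a gene has no median bar. Medians run from -2.55 for the naive pluripotency genes to 2.53 for the primitive streak genes, the latter 0.47 on the log2(TPM + 1) scale, where the formative genes are at 2.08.

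The naive pluripotency genes fell almost without exception. All 17 genes of the list were tested, 16 fell and 1 rose, with a median log2 fold change of -2.55, and all 16 fell by at least 1 on the log2 scale. Esrrb, an orphan nuclear receptor of the naive network (chromosome 12, 86361117 to 86521628, mm10), stood at 513, 475 and 445 CPM in the ES libraries and at 58.2, 52.6 and 51.8 CPM with VB6, a log2 fold change of -3.14 ± 0.08 (SE). Every VB6 library was thus at about the same low level, far below the lowest ES library. Tfcp2l1, a STAT3 target that can sustain self-renewal, went from 511, 598 and 537 CPM to 36.5, 34.5 and 31.3 CPM, a log2 fold change of -4.01 ± 0.08 (SE). Klf4, a zinc finger factor used in reprogramming, went from 149, 115 and 97.2 CPM to 4.33, 5.098 and 4.89 CPM, a log2 fold change of -4.65 ± 0.16 (SE). Its ES values spread more than those of Esrrb, yet the groups remained far apart. The largest fall of the list was that of Prdm14, a repressor of DNA methylation and of differentiation genes, from 19.2, 20.1 and 19.2 CPM to 0.712, 0.673 and 0.7405 CPM, with a log2 fold change of -4.77 ± 0.29 (SE). Zfp42, the reporter gene known as Rex1, fell by 2.53 on the log2 scale and Tcl1, a coactivator of the kinase Akt, fell by 3.63. The exception was Sall4, named after its value was seen, a zinc finger factor that stays on in primed cells, with a log2 fold change of 0.29.

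The core factors fell far less. Pou5f1, which encodes Oct4, the factor common to naive and primed pluripotency, stood at 1226, 1089 and 1163 CPM in ES cells and 724, 755 and 742 CPM with VB6, a log2 fold change of -0.65 ± 0.08 (SE). All VB6 libraries were below all ES libraries, but still above 700 CPM. Sox2, the partner of Oct4, went from 492, 425 and 380.3 CPM to 165, 154 and 163 CPM, a log2 fold change of -1.43 ± 0.10 (SE). Nanog, the homeobox factor of the naive and posterior epiblast, went from 315, 322 and 289 CPM to 152, 153 and 134 CPM, a log2 fold change of -1.08 ± 0.08 (SE). Of the 13 general pluripotency genes, 4 rose and 7 fell, with a median of -0.20. The largest fall was that of Cripto, the Nodal coreceptor (Tdgf1), from 1251, 1295 and 1211 CPM to 443, 435 and 423 CPM. The largest rise was that of L1td1, an RNA-binding protein of pluripotent cells, from 172, 174 and 145 CPM to 372, 388 and 423 CPM, a log2 fold change of 1.27 ± 0.07 (SE). Lin28a and, named after its value was seen, Dppa2, at 0.55, also rose. Utf1, a chromatin-bound factor of pluripotent cells, at -0.08 and Gdf3, a TGF-beta family ligand, at -0.12 did not pass. With the offset for GC content and length, Utf1 passed in the other direction, at 0.26.

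**Figure D2:**
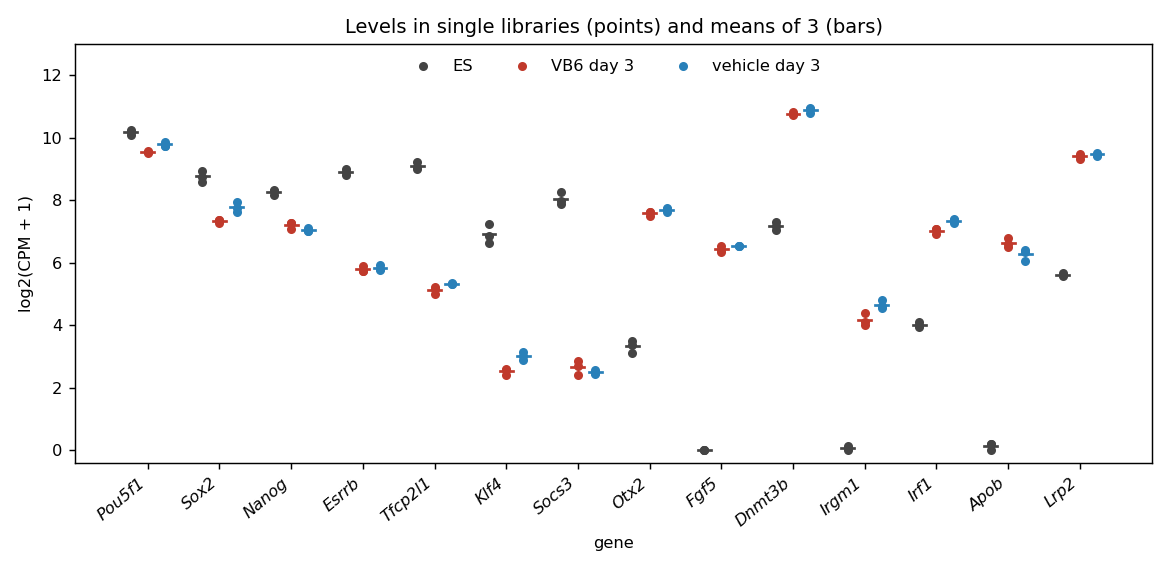
Points are single libraries and bars the means of 3, as log2 of CPM plus 1 (vertical axis), for 14 genes (horizontal axis) in ES cells (grey), VB6 day 3 (red) and vehicle day 3 (blue). Esrrb, Tfcp2l1, Klf4 and Socs3 drop between ES and both day 3 groups, and Otx2, Fgf5, Dnmt3b, Irgm1, Irf1, Apob and Lrp2 come up. For these genes the distance between VB6 and vehicle is small beside the distance of either from ES. It is less small for Pou5f1 (means of 1160 CPM in ES cells, 883 with vehicle and 740 with VB6) and Sox2 (433, 217 and 161 CPM).

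The LIF pathway fell together with the naive genes. Of its 14 tested genes (of 15 listed) 11 fell and 1 rose, with a median of -1.41. Lifr, the LIF receptor chain, went from 112, 133 and 119 CPM to 25.1, 25.7 and 27.2 CPM, a log2 fold change of -2.22 ± 0.07 (SE). Stat3 itself went from 139, 137 and 141 CPM to 43.9, 42.4 and 41.8 CPM, a log2 fold change of -1.70 ± 0.07 (SE). Socs3, the feedback inhibitor that STAT3 switches on (chromosome 11, 117966079 to 117970047, mm10), was at 304, 249 and 237 CPM in ES cells and 5.403, 6.204 and 4.29 CPM with VB6. The log2 fold change was -5.63 ± 0.14 (SE), the largest fall of the list, and every VB6 library was far below every ES library. The kinase gene Pim1, another STAT3 target, fell by 1.39, and Junb, an AP-1 subunit, fell by 1.27. The gene that rose was Ptpn11, named after its value was seen, a phosphatase of the ERK branch, at 0.53. The ligand gene Lif at 0.25 and the ERK inhibitor Spry2 at -0.13 did not pass.

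The promoter of Socs3 is shown because it holds the letters of the site that STAT factors bind, TTCNNNGAA, which reads the same on both strands. RefSeq windows of 300 bases (250 before and 50 after each start site, GRCm38.p6) were searched, and the stretches printed end at the start site at the latest. Capitals mark the match, the first letter of which is 154 bases before the start site in Socs3 and 90 bases before it in Irf1, a gene described further on. The Socs3 stretch lies at chr11:117969472-117969560 on the minus strand and the Irf1 stretch at chr11:53769884-53769972 on the plus strand. The Socs3 stretch falls inside the gene coordinates given above, as the RefSeq start site differs from the gene end in that annotation.
Socs3: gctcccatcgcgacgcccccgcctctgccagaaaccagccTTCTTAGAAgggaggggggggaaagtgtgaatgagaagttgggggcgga
Irf1: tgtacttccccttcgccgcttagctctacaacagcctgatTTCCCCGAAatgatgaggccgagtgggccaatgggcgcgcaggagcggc
Of 32851 promoter windows 2726 (8.30%) hold this motif, or 2582 of 27025 genes (9.55%). Of the 13 LIF pathway genes with an entry, Socs3 alone does. Of the 24 interferon, MHC and immunoproteasome genes with an entry, a list described further on, 7 (29.2%) do, Irf1 and Psmb8 among them. One of the 2 windows listed for Irf1 has no match. These 2 genes moved in opposite directions at day 3, Socs3 down and Irf1 up.

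Formative and primed epiblast genes rose. All 14 of the list were tested, 12 rose and 2 fell, with a median of 2.45. Fgf5, the growth factor that marks the epiblast after implantation (chromosome 5, 98254184 to 98277030, mm10), had no count in any ES library and stood at 82.9, 80.8 and 91.9 CPM with VB6. Against a floor of 3 counts over the 3 ES libraries, the level was at least 1632-fold higher. Otx2, the homeobox factor that directs Oct4 to formative enhancers, went from 10.1, 9.23 and 7.65 CPM to 197, 179 and 195 CPM, a log2 fold change of 4.398 ± 0.08 (SE). Zic2, a zinc finger factor of primed enhancers, went from 2.77, 2.504 and 1.99 CPM to 69.2, 62.95 and 71.6 CPM, a log2 fold change of 4.81 ± 0.15 (SE). The 3 VB6 libraries differed little from each other for these genes, and no ES library came near them. Lef1, a nuclear effector of Wnt signalling, rose by 2.52 ± 0.16 (SE), the SoxB1 gene Sox3 by 2.99 ± 0.19 (SE) and the tight junction gene Cldn6 by 2.37 ± 0.07 (SE). The genes that fell were Etv4, an ETS factor downstream of FGF, at -2.61 ± 0.12 (SE), and Tcf15, named after its value was seen, at -0.34.

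Both de novo DNA methyltransferase genes rose, and other genes of DNA methylation moved in both directions. Dnmt3b, a de novo DNA methyltransferase, went from 155, 143 and 130.5 CPM to 1715, 1678 and 1812 CPM, a log2 fold change of 3.60 ± 0.09 (SE). Dnmt3a, its relative, went from 161, 143 and 142 CPM to 360.4, 379.7 and 396 CPM, a log2 fold change of 1.35 ± 0.06 (SE). Tet2, which oxidises methylcytosine, went from 143, 187 and 157 CPM to 28.9, 29.7 and 24.5 CPM, at -2.55 ± 0.12 (SE). Zfp57, a zinc finger protein that guards methylation at imprinted regions, went from 358, 324 and 319.8 CPM to 64.8, 70.5 and 63.6 CPM, at -2.33 ± 0.07 (SE). Of 12 tested genes (of 13) 4 rose and 8 fell, with a median of -0.50. The other 2 that rose, named after their values were seen, were Tet3 at 0.73 and the glycosylase gene Tdg at 0.69.

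In FGF and ERK signalling the ligand changed. Fgf4, the ligand made by naive cells, fell from 262, 284 and 265 CPM to 113, 104 and 117 CPM, a log2 fold change of -1.28 ± 0.07 (SE), while Fgf5 came up from 0. Of 19 genes 10 rose and 6 fell, with a median of 0.41. Phosphatases that answer to ERK rose, with Dusp4 at 2.07 ± 0.09 (SE) and Dusp6 at 1.88 ± 0.08 (SE), and so did Egr1, an immediate early gene, at 3.02 ± 0.26 (SE). Etv4, the ETS factor downstream of FGF named above, is also in this list and went the other way, 6.12-fold lower with VB6. The feedback inhibitors Spry2 and Spry4 did not pass, with log2 fold changes of -0.13 and 0.04.

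Nodal and activin genes moved in both directions, 9 of 19 up and 7 down (5 up on the TPM scales), with a median of 0.29. Inhbb, which encodes the activin B subunit, went from 83.7, 80.95 and 63.6 CPM to 0.416, 0.577 and 0.543 CPM, a log2 fold change of -7.18 ± 0.17 (SE). Every VB6 library was below 1 CPM, and this was the second largest fall among all ranked genes. Among inhibitors of the pathway Lefty1, a Nodal antagonist, went from 9.67, 8.71 and 9.64 CPM to 84.4, 82.7 and 86.9 CPM, and the activin-binding protein gene Fst rose by 2.86 ± 0.25 (SE). Lefty1 has a close copy, Lefty2, and reads may be divided between them. Pcsk6, a convertase that matures Nodal, fell by 2.56. Smad4, the mediator shared with BMP signalling, at 0.04 did not pass.

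BMP genes were split evenly, 7 of 18 up and 7 down, with a median of 0.02, whose sign changes with the scale. Id3, a direct BMP target that blocks helix-loop-helix factors, went from 2.35, 2.504 and 2.46 CPM to 26.2, 28.95 and 30.5 CPM, a log2 fold change of 3.55 ± 0.10 (SE), and Msx1, a homeobox target, rose by 3.05 ± 0.33 (SE). The ligand gene Bmp7 went from 20.9, 19.1 and 18.3 CPM to 2.49, 1.78 and 1.78 CPM, at -3.28 ± 0.14 (SE). The receptor gene Bmpr1a rose by 0.65, and Bmpr2 and Smad1, both at 0.02, did not pass. With the GC and length offset Bmpr2 passed as lower, at -0.48.

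Of 22 Wnt genes 14 rose and 6 fell, with a median of 0.68. Dkk1, a secreted Wnt inhibitor and target, went from 0.314, 0.0522 and 0.472 CPM to 5.94, 6.49 and 6.47 CPM, a log2 fold change of 4.47 ± 0.26 (SE), or 5.06 without ES replicate 3. The receptor genes moved in different directions, with Fzd2 at 2.49, Fzd7 at 1.36 and Fzd5 at -1.22. Cdx1, a caudal homeobox target of Wnt, was at 7.74, 5.69 and 3.93 CPM in ES cells and had counts in 1 VB6 library alone, 0, 0 and 0.0987 CPM. It was 167-fold lower (95% counting interval 46.0 to 1389), and at least 72.6-fold lower without VB6 replicate 3. Wnt5a at 0.61 and the target Sp5 at -0.23 did not pass.

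Of 17 retinoid genes tested (of 18) 6 rose and 6 fell, with a median of -0.11. Cyp26a1, the enzyme that breaks down retinoic acid, went from 0.6796, 0.156 and 0.838 CPM to 21.3, 25.3 and 27.8 CPM, a log2 fold change of 5.46 ± 0.20 (SE). Stra8, a retinoic acid target of the germline, went from 88.04, 77.8 and 77.3 CPM to 1.66, 1.88 and 2.07 CPM, at -5.42 ± 0.14 (SE). The binding protein genes Crabp1 and Crabp2 moved apart, at -1.99 and 1.09, and Rarb at 0.43 did not pass.

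Primitive streak genes rose from very low levels, yet T did not. Of 11 tested (of 12) 8 rose and none fell, with a median of 2.53 (0.47 on log2(TPM + 1) and 2.09 on log2(TPM + 0.1)), and on the TPM scales or without VB6 replicate 3 there was 1 that fell. Eomes, a T-box factor of the streak and endoderm, went from 6.17, 4.22 and 5.13 CPM to 29.2, 28.8 and 31.99 CPM, a log2 fold change of 2.53 ± 0.15 (SE). Lhx1, a LIM homeobox factor of the anterior streak, went from 0.0523, 0 and 0.105 CPM to 9.44, 7.89 and 12.2 CPM, 188-fold higher (95% counting interval 64.1 to 916), between 125-fold and 377-fold when single ES libraries were left out. Mixl1, a mesendoderm homeobox gene, reached only 1.25, 1.06 and 1.18 CPM, from 0, 0.104 and 0.0524 CPM. That is 22.1-fold higher (95% counting interval 7.26 to 110), and 14.8-fold to 44.2-fold without single ES libraries. T (Brachyury), the classical streak marker, stood at 0.418, 0.782 and 0.576 CPM in ES cells and 0.772, 0.769 and 0.247 CPM with VB6, at -0.01, and did not pass. Tbx6 at -0.66 and Evx1 at 0.93 did not pass either.

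Endoderm transcription factors were mostly still low at day 3. Of 16 definitive endoderm genes 10 rose and 3 fell, with a median of 0.75. Foxa2, the pioneer factor of endoderm, went from 0.6796, 0.313 and 0.314 CPM to 4.27, 3.895 and 4.64 CPM, a log2 fold change of 3.27 ± 0.24 (SE). Sox17, the defining factor of definitive endoderm, stood at 2.72, 1.93 and 1.99 CPM in ES cells and 2.67, 3.51 and 3.85 CPM with VB6. The ranges overlap, and the log2 fold change of 0.61 ± 0.20 (SE) (edgeR adjusted p = 0.01) did not pass on the TPM scales (0.26 and 0.34) or without VB6 replicate 3 (0.50, edgeR adjusted p = 0.060). Gata6 at 0.11 and the chemokine receptor gene Cxcr4 at 0.12 did not pass, while Gata4 rose by 1.42 ± 0.10 (SE). The cadherin gene Cdh2 rose by 3.26 ± 0.16 (SE) and the keratin gene Krt18 by 3.05 ± 0.10 (SE). Among those that fell was Kit, a receptor tyrosine kinase gene, from 125, 126 and 117 CPM to 32.2, 29.4 and 28.6 CPM. The other 2, named after their values were seen, were Hhex at -0.90 and Krt19 at -1.36.

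Genes of visceral endoderm, the extraembryonic layer that feeds the epiblast, rose, among them serum carriers, lipoprotein genes and apical uptake receptors. Of 22 tested genes (of 24) 14 rose and 2 fell, with a median of 2.22 (1.09 on log2(TPM + 1) and 1.58 on log2(TPM + 0.1)). Apob, the structural protein of lipoprotein particles (chromosome 12, 7977648 to 8016835, mm10), went from 0.157, 0 and 0.157 CPM to 90.4, 94.98 and 109 CPM, a log2 fold change of 9.78 ± 0.24 (SE). That value rests on 6 ES counts, whose counting error the SE does not give. The endocytic receptor Lrp2 (megalin) went from 47.2, 49.4 and 46.4 CPM to 639.9, 681 and 710.3 CPM, at 3.83 ± 0.06 (SE). Its partner Cubn (cubilin) went from 24.4, 29.9 and 22.004 CPM to 393, 413 and 423 CPM, at 4.01 ± 0.12 (SE), and their adaptor Dab2 from 17.5, 16.3 and 15.6 CPM to 255, 263 and 265 CPM, at 3.99 ± 0.08 (SE). All VB6 libraries held these 3 at more than 10 times the level of any ES library. Ttr, a thyroid hormone carrier, went from 0, 0 and 0.0524 CPM to 13.5, 12.1 and 14.9 CPM. That is 774-fold higher (95% counting interval 139 to 30617), resting on 1 ES count, and at least 172-fold without ES replicate 3. Afp, the fetal serum carrier, had no ES count and stood at 2.49, 1.83 and 2.12 CPM with VB6, at least 40.6-fold higher. The genes that fell, named after their values were seen, were Trf, for transferrin, at -2.55 and Apoc1 at -1.14. The fibrinogen chain genes Fga and Fgg did not pass, with Fgg at 0.15 and Fga at 0 to 0.247 CPM in single VB6 libraries.

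**Figure D3:**
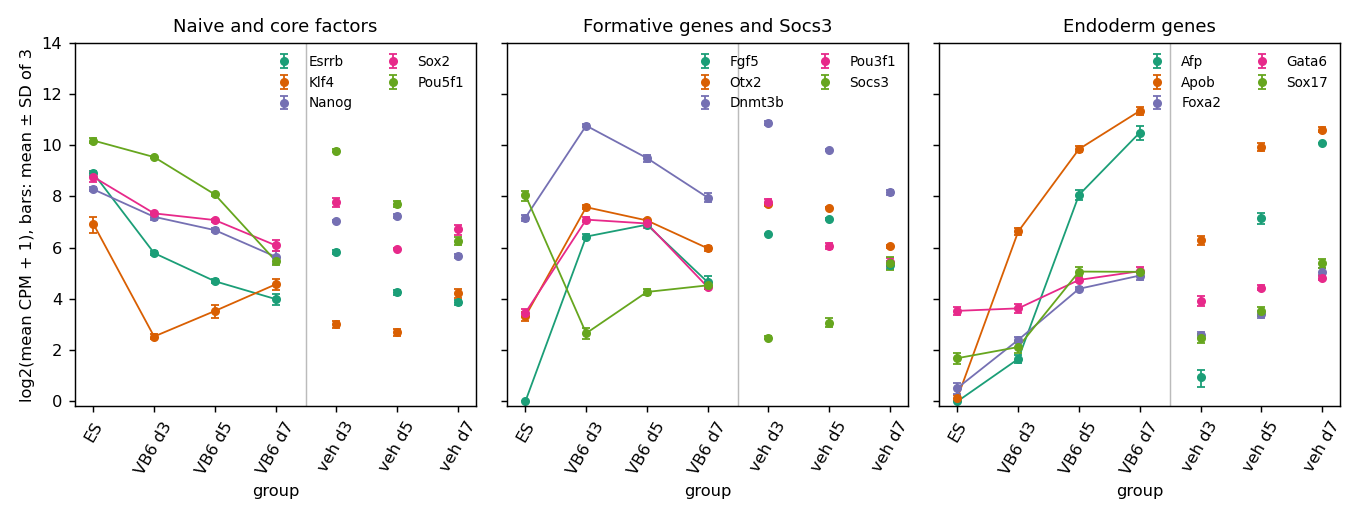
Points are group means of 3 libraries with SD bars, as log2 of CPM plus 1, in ES cells, VB6 days 3, 5 and 7 (joined by lines) and vehicle days 3, 5 and 7 (right of the grey line). Fgf5 and Otx2 are already high at VB6 day 3, while Afp, Sox17, Gata6 and Foxa2 reach most of their rise after it.

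Later days put these values in order. Afp was at 2.15 ± 0.334 (SD, n = 3) CPM at VB6 day 3, 265 ± 35.7 (SD, n = 3) CPM at day 5 and 1437 ± 261 (SD, n = 3) CPM at day 7. Sox17 was at 3.34 ± 0.607 (SD, n = 3) CPM at day 3, 32.5 ± 4.15 (SD, n = 3) CPM at day 5 and 32.2 ± 1.11 (SD, n = 3) CPM at day 7, the last 2 of which lie within their spread. Fgf5 was at 85.2 ± 5.903 (SD, n = 3) CPM at day 3, 118 ± 2.11 (SD, n = 3) CPM at day 5 and 24.1 ± 4.398 (SD, n = 3) CPM at day 7. Day 3 therefore held high Fgf5 with Afp and Sox17 far below their later levels. Klf4 and Socs3, at their lowest in the VB6 series at day 3, stood at 22.7 ± 3.37 (SD, n = 3) and 22.05 ± 2.25 (SD, n = 3) CPM at day 7. The day 7 VB6 libraries have shorter fragments (260 to 275 nt), so levels across days carry that difference.

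Primitive and parietal endoderm genes were mixed, 8 of 17 up and 4 down, with a median of 0.29. Sox7 rose from 1.99, 2.03 and 1.41 CPM to 11.2, 9.81 and 8.15 CPM, a log2 fold change of 2.41 ± 0.18 (SE). Nid1, for the basement membrane protein nidogen, went from 287, 287 and 284 CPM to 25.8, 26.5 and 24.3 CPM, a log2 fold change of -3.49 ± 0.08 (SE), the largest fall of the list. Snai1 fell too, as did, named after their values were seen, the laminin genes Lama1 and Lamc1, at -0.55 and -0.39. Col4a1, for a collagen IV chain, at 0.09 and Plat, for a plasminogen activator, at 0.10 did not pass.

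Lists of other lineages moved in both directions. Of 12 neural genes tested (of 13) 6 rose and 2 fell, with a median of 0.61. Sox1, the first definitive neural marker, went from 5.44, 5.11 and 3.35 CPM to 0.653, 0.337 and 0.296 CPM, a log2 fold change of -3.46 ± 0.29 (SE). Sox11 rose by 2.55 ± 0.08 (SE) and the filament gene Nes by 1.42 ± 0.12 (SE), both of which other progenitors also express. Tubb3, for a neuronal tubulin, named after its value was seen, fell by 1.02. Of 10 mesoderm genes tested (of 14) 3 rose and 4 fell, with a median of -0.58. Hand1 went from 5.02, 3.81 and 5.03 CPM to 0.475, 0.625 and 0.592 CPM and Gata2 from 6.53, 4.69 and 5.396 CPM to 0.891, 1.06 and 1.43 CPM, while Kdr at -0.53 did not pass. Tal1, a blood and endothelial factor, rose from 0, 0.417 and 0.262 CPM to 2.43, 2.07 and 2.57 CPM, at 3.34 ± 0.47 (SE), or 4.10 without ES replicate 2. Isl1 rose by 2.34 ± 0.57 (SE), or 3.46 without ES replicate 1, and Tbx20, named after its value was seen, by 0.91. Snai1 and, named after its value was seen, Twist1 fell by 1.19 and 0.63. Of 8 trophoblast genes tested (of 12) 2 rose and 5 fell, with a median of -0.67. Eomes, which is also a streak gene, and Cdx2, named after its value was seen, at 1.52, rose. Hand1, Tead4 (-1.33), Krt7 (-0.75) and, named after its value was seen, Ascl2 (-0.58) fell, and Tfap2c fell from 49.2, 41.1 and 41.2 CPM to 3.32, 4.42 and 1.93 CPM. Of 10 fibroblast and feeder genes (of 12) 2 rose and 2 fell, with a median of 0.00. Among the 10 are Col3a1 and Postn, at 0 counts in both groups, so this median is not a measured lack of change. Pdgfrb fell by 2.31, and Col5a1 by 1.23. Col1a2, a collagen chain, rose from 0.314, 0.678 and 0.105 CPM to 1.66, 1.78 and 1.88 CPM, at 2.26 ± 0.54 (SE), or 3.05 without ES replicate 2. Dcn, for decorin, had no ES count and 0.831, 0.866 and 0.7405 CPM with VB6, at least 15.5-fold higher.

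Interferon-stimulated, MHC class I and immunoproteasome genes included some of the largest changes of the comparison. All 27 genes of the list were tested, 16 rose and 5 fell, with a median of 1.15 (0.56 on log2(TPM + 1)), and 15 rose by at least 1 on the log2 scale. Psmb8, a catalytic subunit of the immunoproteasome (chromosome 17, 34197721 to 34201454, mm10), had no count in ES cells and 15.4, 19.1 and 19.5 CPM with VB6, at least 347-fold higher. Psmb10, another such subunit, went from 10.2, 12.4 and 14.1 CPM to 52.1, 55.98 and 57.4 CPM, a log2 fold change of 2.17 ± 0.11 (SE). Irf1, the transcription factor that drives MHC and immunoproteasome genes, went from 16.1, 14.97 and 14.4 CPM to 119.6, 133 and 135 CPM, at 3.09 ± 0.10 (SE). Irgm1, an immunity-related GTPase (chromosome 11, 48861968 to 48871683, mm10), went from 0.0523, 0.104 and 0 CPM to 14.96, 16.2 and 19.7 CPM. That is 327-fold higher (95% counting interval 111 to 1587), between 218-fold and 653-fold without single ES libraries. The guanylate-binding protein gene Gbp2 went from 0.0523, 0.0522 and 0.2096 CPM to 15.1, 14.1 and 12.6 CPM, at 6.96 ± 0.32 (SE), or 7.88 without ES replicate 3. It has close relatives, among them Gbp2b, so reads may be divided between copies. Gbp2b itself was at 0, 0.104 and 0 CPM in ES cells and 7.24, 7.45 and 6.96 CPM with VB6, 207-fold higher (95% counting interval 57.0 to 1716), and at least 92.0-fold without ES replicate 2. Irf9, a transcription factor of the type I interferon response, at -0.14 did not pass. Among the genes that fell, named after their values were seen, were Stat2, Tap1, Ifitm1 and Ifitm2, at -0.94, -0.25, -0.76 and -1.13. Nlrc5, the MHC class I transactivator, at 0.44 did not pass.

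The promoters of 4 of these genes are shown because they hold the letters of the site that interferon regulatory factors bind, taken here as 2 copies of GAAA with any 2 bases between them and searched on both strands. Capitals mark the match. In Gbp2 it lies on the opposite strand and so reads as 2 copies of TTTC. In Irgm1 a pair of matches overlap. Igtp and Irgm2, chosen after their values were seen, are neighbours of the same family on chromosome 11. The stretches lie at chr11:48871421-48871490 (minus strand, Irgm1), chr11:58199482-58199555 (plus strand, Igtp), chr11:58214873-58214962 (plus strand, Irgm2) and chr3:142620564-142620653 (plus strand, Gbp2), GRCm38.p6. The Irgm1 stretch, like that of Socs3, falls inside the gene coordinates given above.
Irgm1: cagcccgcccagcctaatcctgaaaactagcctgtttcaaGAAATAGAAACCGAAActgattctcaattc
Igtp: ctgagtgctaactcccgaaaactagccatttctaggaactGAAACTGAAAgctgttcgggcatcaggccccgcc
Irgm2: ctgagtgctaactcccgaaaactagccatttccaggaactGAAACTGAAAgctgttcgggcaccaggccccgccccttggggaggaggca
Gbp2: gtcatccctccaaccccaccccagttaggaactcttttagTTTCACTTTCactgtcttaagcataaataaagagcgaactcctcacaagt
The first match begins 30 bases before the start site in Irgm1, 34 in Igtp, 64 in Irgm2 and 59 in Gbp2. Igtp and Irgm2 are identical at 72 of the 74 positions that both stretches share when aligned at the match. These stretches lie before the start site, and whether reads are divided between the transcripts of these genes was not tested. Igtp went from 3.19, 3.18 and 3.41 CPM to 15.97, 13.2 and 13.3 CPM, a log2 fold change of 2.11, and Irgm2 from 0.941, 1.1997 and 1.36 CPM to 10.9, 9.28 and 10.6 CPM, at 3.12. Of all 32851 promoter windows 1131 (3.44%) hold the motif, or 1079 of 27025 genes (3.99%). Of the 24 genes of the list with an entry 12 do, and 9 of these rose, 2 fell and 1 did not pass. Of the 12 without it 6 rose, 2 fell and 4 did not pass, Psmb8 among those that rose. Matches are letters in a window, and binding was not measured.

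**Figure D4:**
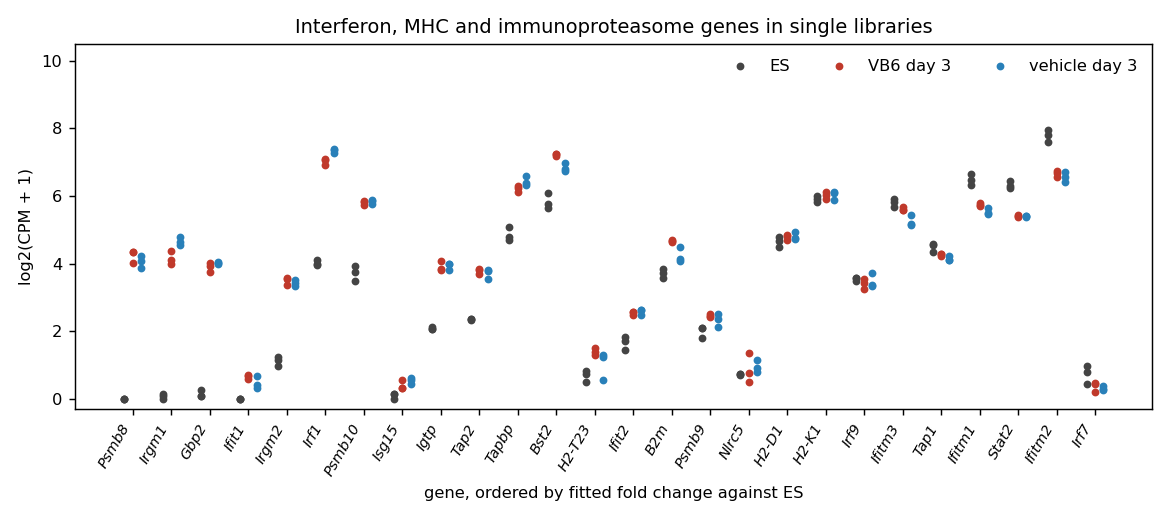
Points are single libraries, as log2 of CPM plus 1 (vertical axis), of interferon, MHC and immunoproteasome genes (horizontal axis, ordered by fold change) in ES cells (grey), VB6 day 3 (red) and vehicle day 3 (blue). Psmb8, Irgm1 and Gbp2 lie near 0 in all 3 ES libraries and well above it in all 6 day 3 libraries, while Ifitm2, Stat2 and Ifitm1 lie lower at day 3.

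Regulators of developmental timing rose with a small median. Of 15 Lin28, Igf2bp and let-7 genes 13 rose and 1 fell, with a median of 0.44, but 7 rose on the TPM scales. Lin28b, which blocks maturation of the microRNA let-7, went from 14.5, 16.95 and 17.4 CPM to 70.1, 73.1 and 70.9 CPM, a log2 fold change of 2.13 ± 0.10 (SE). Lin28a rose by 0.82 ± 0.05 (SE), and Hmga2, a let-7 target, by 1.24 ± 0.11 (SE). Igf2bp2 at 0.00 did not pass, and the one that fell, named after its value was seen, was Dis3l2, for an exonuclease that degrades tagged let-7 precursors, at -0.61. Of 20 polycomb genes 5 rose and 10 fell, with a median of -0.17. Phf19, an accessory subunit of the complex that methylates histone H3, went from 18.1, 17.1 and 16.2 CPM to 1.19, 1.202 and 1.38 CPM, at -3.76 ± 0.16 (SE). Its catalytic subunit Ezh2 fell by 0.47, and Bmi1, of the other polycomb complex, rose by 1.42 ± 0.12 (SE). The others that rose were Pcgf6 at 0.83 and, named after their values were seen, Cbx2, Cbx7 and Mtf2 at 0.71, 0.19 and 0.16.

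Of 17 imprinted growth genes tested (of 18) 11 rose and 4 fell, with a median of 0.81. Impact, a regulator of translation, went from 69.8, 77.8 and 78.01 CPM to 252, 259 and 258 CPM, a log2 fold change of 1.77 ± 0.06 (SE). Snrpn, for a splicing protein, rose by 1.75 ± 0.07 (SE), Peg3 by 1.69 ± 0.05 (SE) and the long noncoding RNAs H19 and Meg3 by 1.35 ± 0.08 (SE) and 1.26 ± 0.08 (SE). These come from different parental alleles, which these counts cannot separate. The genes that fell, named after their values were seen, were Sgce, Peg10, Cdkn1c and Phlda2, at -0.94, -0.53, -0.43 and -0.27. Grb10 at 0.07 did not pass, and passed as lower, at -0.11, with the GC and length offset.

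Genes of the 2-cell-like state, a rare condition of ES cells in which transcripts of the early cleavage embryo appear, rose. Of 13 tested (of 17) 11 rose and none fell, with a median of 1.51. Zscan4d went from 8.89, 6.83 and 6.81 CPM to 22.2, 21.8 and 27.3 CPM, a log2 fold change of 1.66 ± 0.20 (SE), and Usp17le rose by 1.99 ± 0.26 (SE). Zscan4a at 0.75 and Zfp352 at 0.64 did not pass. The Zscan4, Usp17l and Tcstv genes are near-identical copies, so the 11 are not separate measurements. Of 15 germline genes (of 16) 4 rose and 7 fell, with a median of -0.29. Tdrd1, of the piRNA pathway, rose by 1.66 ± 0.17 (SE) and its partner Piwil2 fell by 1.94. Named after their values were seen, Sycp1 and Slc25a31 rose by 0.61 and 0.56. Sycp3, for an axial protein of meiotic chromosomes, went from 37.5, 45.4 and 47.5 CPM to 79.6, 89.6 and 76.7 CPM.

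Glycolysis did not move as a group. Of 24 genes 8 rose, 9 fell and 7 did not pass, with a median of -0.01. Hk1, for the hexokinase bound to mitochondria, went from 292, 242 and 259 CPM to 61.98, 58.1 and 52.6 CPM, a log2 fold change of -2.20 ± 0.09 (SE). Pfkp, a phosphofructokinase, went from 749, 746 and 728 CPM to 297, 313 and 279 CPM, at -1.32 ± 0.07 (SE). Hk2, the inducible hexokinase, fell by 0.52. Ldha, the lactate dehydrogenase subunit that makes lactate, went from 1761, 1639 and 1694 CPM to 2074, 2189 and 2051 CPM, a log2 fold change of 0.31 ± 0.05 (SE). Slc16a1, for a lactate transporter, and Pdk1, for a kinase that shuts pyruvate dehydrogenase, rose by 1.09 ± 0.07 (SE) and 1.05 ± 0.06 (SE). Pkm, for pyruvate kinase, stood at 4927, 4315 and 4548 CPM in ES cells and 5126, 5261 and 4983 CPM with VB6, at 0.16 ± 0.06 (SE) (edgeR adjusted p = 0.03). This small difference did not pass on the TPM scales (0.04), with a stricter filter (0.12) or without VB6 replicate 1 or 2 or ES replicate 2 or 3 (0.11 to 0.16). The glucose transporter gene Slc2a1 at -0.07 and Tpi1 at 0.05 did not pass.

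Most genes of the list for pyruvate entry and the citric acid cycle fell, among them both carriers or enzymes and an inhibitor. Of 26 genes 18 fell and 2 rose, with a median of -0.40. Mpc1, which helps carry pyruvate across the inner mitochondrial membrane, went from 38.2, 42.04 and 44.5 CPM to 9.44, 9.04 and 8.79 CPM, a log2 fold change of -2.19 ± 0.11 (SE). Pyruvate carboxylase, Pcx, fell by 1.19. Pdk4, for a kinase that like Pdk1 shuts pyruvate dehydrogenase, went from 38.2, 34.3 and 40.3 CPM to 8.07, 9.91 and 7.701 CPM, at -2.13 ± 0.12 (SE). The isocitrate dehydrogenase genes Idh2 and Idh3g fell by 0.65 and 0.59. The 2 that rose, Fh1 at 0.13 and Mdh2 at 0.22 were named after their values were seen.

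Nuclear and mitochondrial genes of oxidative phosphorylation moved apart. Of 30 nuclear subunit genes 16 fell and none rose, with a median of -0.22, and on the TPM scales 25 fell, while 1 rose without the filter on low counts, with the compared libraries alone or without the short-fragment groups. Uqcrc1, a core subunit of complex III, went from 377, 327 and 359.5 CPM to 169, 174 and 167 CPM, a log2 fold change of -1.06 ± 0.06 (SE), and Sdhc, of complex II, fell by 0.95. Ndufv1 and Cyc1 fell by 0.41 and 0.36, and neither passed with the GC and length offset (-0.14 and -0.02). Of the 13 protein genes of the mitochondrial genome 10 rose and none fell, with a median of 1.11, or 0.56 with the GC and length offset. With the offset, without the filter on low counts, or with the compared libraries alone, 1 of them fell. mt-Cytb, for cytochrome b, went from 357, 453 and 434 CPM to 2112, 2284 and 2412 CPM, at 2.45 ± 0.08 (SE), and mt-Nd1 from 678, 807 and 877 CPM to 2326, 2461 and 2653 CPM. mt-Co2 and mt-Co3 did not pass, at -1.09 and 0.45, with mt-Co2 spread from 8.85 to 29.5 CPM between VB6 libraries. Mitochondrial transcripts were 2.65 to 2.94% of counts with VB6 and 1.51 to 1.90% in ES cells. Their copies in the nuclear genome can take reads, and the part of GC content in these values was not tested beyond the offset, under which mt-Nd3 was at 1.64 against 2.47.

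Most vitamin B6 handling genes fell. Of 9 tested genes (of 11) 7 fell and 1 rose, with a median of -0.37, and 3 fell by at least 1 on the log2 scale. Pdxk, the kinase that traps pyridoxine in the cell, went from 48.8, 47.05 and 45.1 CPM to 38.6, 35.5 and 36.6 CPM, a log2 fold change of -0.35 ± 0.08 (SE). The groups did not overlap. The phosphatase genes Alpl and Pdxp, which remove the phosphate, fell more, at -1.38 ± 0.10 (SE) and -1.08 ± 0.11 (SE). Slc19a2, a thiamine transporter that also carries pyridoxine, fell by 0.48, and Slc19a3 at -0.21 did not pass. Pdxdc1, for a protein with a pyridoxal phosphate domain, rose by 0.29 with counts but not on the TPM scales, where it was at 0.04.

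Of 36 tested genes for enzymes that use pyridoxal phosphate (of 40) 12 rose and 19 fell, with a median of -0.34, and 4 to 6 rose on the TPM scales. Pygm, muscle glycogen phosphorylase, went from 15.3, 14.1 and 15.4 CPM to 2.91, 2.45 and 3.21 CPM, a log2 fold change of -2.38 ± 0.14 (SE). Cth, which makes cysteine, fell by 1.505, and Csad, on the way to taurine, fell by 1.41. Shmt2, the mitochondrial serine hydroxymethyltransferase, went from 318, 243 and 246 CPM to 131, 138 and 124 CPM, at -1.04 ± 0.09 (SE). Bcat1, which transfers the amino group of branched-chain amino acids, fell by 0.93. In the serine, threonine and folate list 14 of 22 rose and 7 fell, with a median of 0.24, but 5 to 6 rose on the TPM scales. Mthfd2, the mitochondrial folate enzyme next to Shmt2, fell by 0.99, and Tdh, the threonine dehydrogenase on which mouse ES cells rely, went from 244, 212 and 200.3 CPM to 102, 101 and 104 CPM, at -1.10 ± 0.08 (SE). Mat2a, which makes S-adenosylmethionine, rose by 1.11 ± 0.07 (SE). Of 22 cholesterol genes 7 rose and 5 fell, with a median of 0.03. Idi1, an isomerase of the pathway, rose by 0.93 ± 0.08 (SE). Those that fell, named after their values were seen, were Srebf2, Pmvk, Dhcr7, Stard4 and Msmo1, at -0.55 to -0.18.

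Of 16 genes named for histone lactylation and acyl transfer 5 rose and 6 fell, with a median of -0.07. Ep300, the acetyltransferase also reported to add lactyl groups, went from 139, 142 and 119.9 CPM to 230.1, 226 and 234 CPM, a log2 fold change of 0.78 ± 0.06 (SE). Aars1, the alanyl-tRNA synthetase, went from 623, 543 and 536 CPM to 350.3, 369.9 and 375 CPM, at -0.64 ± 0.07 (SE). Acss2, which makes acetyl-CoA from acetate, fell by 1.49, the deacylase gene Sirt3 by 1.03 and the acetyltransferase gene Kat7 by 0.46. Besides Ep300 the genes that rose, named after their values were seen, were Hdac1, Crebbp, Sirt2 and Sirt1, at 0.61, 0.49, 0.39 and 0.32. Kat2b at -0.08 and Kat8 at 0.04 did not pass. Lactylation itself is not measured by RNA.

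Stress response lists mostly fell. Of 15 ATF4 genes tested (of 16) 9 fell and 4 rose, with a median of -0.55. Asns, asparagine synthetase, went from 488, 447 and 459 CPM to 174, 172 and 173 CPM, a log2 fold change of -1.42 ± 0.05 (SE). Trib3, a pseudokinase of the same response, fell by 1.59 and Nupr1 by 2.52, and the paired amino acid transporter genes Slc7a5 and Slc3a2 fell by 0.94 and 0.89. The genes that rose, named after their values were seen, were Slc7a11, Vldlr, Slc7a3 and Ddit4, at 1.76, 1.14, 0.91 and 0.42. Cebpb at -0.29 and Sesn2 at 0.13 did not pass. Of 16 hypoxia genes outside glycolysis (of 17) 9 fell and 4 rose, with a median of -0.31. Vegfa, the vascular growth factor, went from 149, 137 and 132 CPM to 41.4, 44.4 and 34.2 CPM, at -1.80 ± 0.10 (SE). Epas1, which encodes HIF-2 alpha, went from 54.4, 47.9 and 45.6 CPM to 12.5, 15.2 and 13.7 CPM, at -1.83 ± 0.13 (SE), whereas Hif1a rose by 0.54 ± 0.06 (SE) and Egln3 by 1.08. Adm and Kdm3a, named after their values were seen, rose by 1.33 and 0.41. Of 17 p53 target genes 9 fell and 1 rose, with a median of -0.20. Cdkn1a, the cell cycle inhibitor p21, went from 147, 134 and 145 CPM to 32.4, 36.7 and 37.2 CPM, at -1.998 ± 0.07 (SE). The nuclease gene Aen was the one that rose, at 0.35 ± 0.05 (SE). Of 15 BCL2 family genes (of 16) 9 fell and 4 rose, with a median of -0.26. Bcl2 itself, a survival gene, rose from 0.105, 0.156 and 0.105 CPM to 1.8998, 1.01 and 1.09 CPM. Bid rose by 0.60, and Bok and Bcl2l11, named after their values were seen, by 0.67 and 0.36. The survival gene Mcl1 fell by 0.42.

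Most ribosome biogenesis genes rose, and cell cycle genes were mixed. Of 18 ribosome biogenesis genes 15 rose and 2 fell, with a median of 0.55. Ncl, for nucleolin, went from 1952, 1989 and 1922 CPM to 3531, 3626 and 3739 CPM, a log2 fold change of 0.89 ± 0.05 (SE), and Nop58, of the box C/D particles that guide ribosomal RNA methylation, rose by 1.02 ± 0.06 (SE). Those that fell, named after their values were seen, were Dkc1 at -0.33 and Ubtf at -0.29. Rrp9 at -0.05 did not pass, and passed as higher with the GC and length offset, at 0.28. Of 12 Myc family genes 7 rose and 3 fell, with a median of 0.34. Myc went from 5.91, 5.37 and 3.301 CPM to 20.9, 23.3 and 29.03 CPM, at 2.33 ± 0.15 (SE), and Mycl from 12.7, 10.2 and 9.27 CPM to 53.4, 55.7 and 50.8 CPM, at 2.31 ± 0.12 (SE). Those that fell were Mxd3 (-1.48) and, named after their values were seen, Mxd1 (-0.71) and Mxd4 (-0.33), all antagonists of Myc. Other antagonists did not fall, as Mnt rose 1.69-fold and Mxi1, at 0.92-fold, did not pass. Of 24 cell cycle genes 6 rose and 11 fell, with a median of -0.09. Ccnd3, for a D-type cyclin, went from 351, 283 and 294 CPM to 73.9, 80.4 and 67.9 CPM, at -2.06 ± 0.09 (SE), and the pocket protein gene Rbl2 fell by 1.92. Of 13 immediate early genes (of 14) 7 rose and 2 fell, with a median of 0.67. Fosl2 rose by 2.37 ± 0.17 (SE), Jun by 1.01 ± 0.14 (SE), and Fos at 0.26 did not pass. Junb and, named after its value was seen, Jund fell by 1.27 and 0.58.

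Of 21 adhesion and epithelial genes 11 rose and 9 fell, with a median of 0.42. Fn1, for fibronectin, went from 1181, 1062 and 979 CPM to 378, 392.3 and 367 CPM, a log2 fold change of -1.502 ± 0.07 (SE). Esrp1, an epithelial splicing factor, went from 23.996, 22.3 and 24.1 CPM to 131, 128 and 125 CPM, at 2.44 ± 0.06 (SE). Snai1, a repressor of epithelial genes, fell by 1.19. Itgb1 at 0.05 did not pass, and passed as lower, at -0.13, with the GC and length offset.

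Ranked over all protein-coding genes with at least 5 CPM in the higher group and no overlap between groups (12851 genes of any kind, or 68%, had no overlap), the 10 largest rises were those of Fgf5, Psmb8, Prss12, Apob, Ttr, Irgm1, Gbp2b, Lhx1, Enpp2 and Kctd12b. Of these, 2 belong to the interferon and immunoproteasome list (Psmb8, Irgm1) and 2 to the visceral endoderm list (Apob, Ttr). Prss12, a secreted serine protease, had no ES count and 11.3, 12.5 and 11.6 CPM with VB6, at least 226-fold higher. Enpp2, which makes lysophosphatidic acid, went from 0.261, 0.522 and 0.576 CPM to 70.6, 69.4 and 70.4 CPM, a log2 fold change of 7.25 ± 0.21 (SE). Kctd12b went from 0.0523, 0.0522 and 0.0524 CPM to 8.49, 8.13 and 8.44 CPM, 160-fold higher (95% counting interval 54.3 to 777). The 10 largest falls were those of Smim45, Inhbb, Cdx1, Socs3, Rapgef3, Prmt8, Khdc3, Serpinb1a, Stra8 and Mras. Khdc3, a maternal factor also known as Filia, went from 116, 119 and 113 CPM to 1.84, 3.32 and 2.17 CPM, at -5.55 ± 0.18 (SE). Rapgef3, an exchange factor switched on by cyclic AMP, went from 30.01, 25.5 and 24.05 CPM to 0.712, 0.337 and 0.592 CPM, at -5.61 ± 0.22 (SE), and Mras, a Ras relative, from 36.5, 31.7 and 30.4 CPM to 0.891, 0.529 and 1.04 CPM. Prmt8, a membrane-bound arginine methyltransferase, fell by 5.58 and the protease inhibitor gene Serpinb1a by 5.44. Smim45 went from 5.803, 6.21 and 7.96 CPM to 0, 0 and 0.0987 CPM, 193-fold lower (95% counting interval 52.98 to 1597), and at least 83.5-fold lower without VB6 replicate 3.

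How far these changes depend on the vitamin was tested by setting VB6 day 3 against vehicle day 3, which is the same as asking whether the change from ES differs between them. Of 18901 genes 804 (4.25%) passed, 280 higher (1.48%) and 524 lower (2.77%) with VB6, and 34.8% of calls were higher (20.6% and 24.5% on the TPM scales). Differences were small: 10 genes were higher (0.0529%) and 37 lower (0.196%) by at least 1 on the log2 scale, and 2 (0.0106%) and 8 (0.0423%) by at least 2, while 5495 genes (29.1%) had no overlap between groups. The number of calls changed when single libraries were left out, which also leaves fewer libraries in a group. Without vehicle replicates 1, 2 and 3 it was 888, 191 and 372, and without VB6 replicates 1, 2 and 3 it was 255, 310 and 407. Esrrb (log2 difference -0.05 ± 0.08 (SE)), Fgf5 (-0.11 ± 0.09 (SE)), Otx2 (-0.11 ± 0.06 (SE)), Socs3 (0.20 ± 0.19 (SE)), Klf4 (-0.56 ± 0.20 (SE)), Psmb8 (0.19 ± 0.15 (SE)) and Lrp2 (-0.06 ± 0.05 (SE)) did not pass between VB6 and vehicle.

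**Figure D5:**
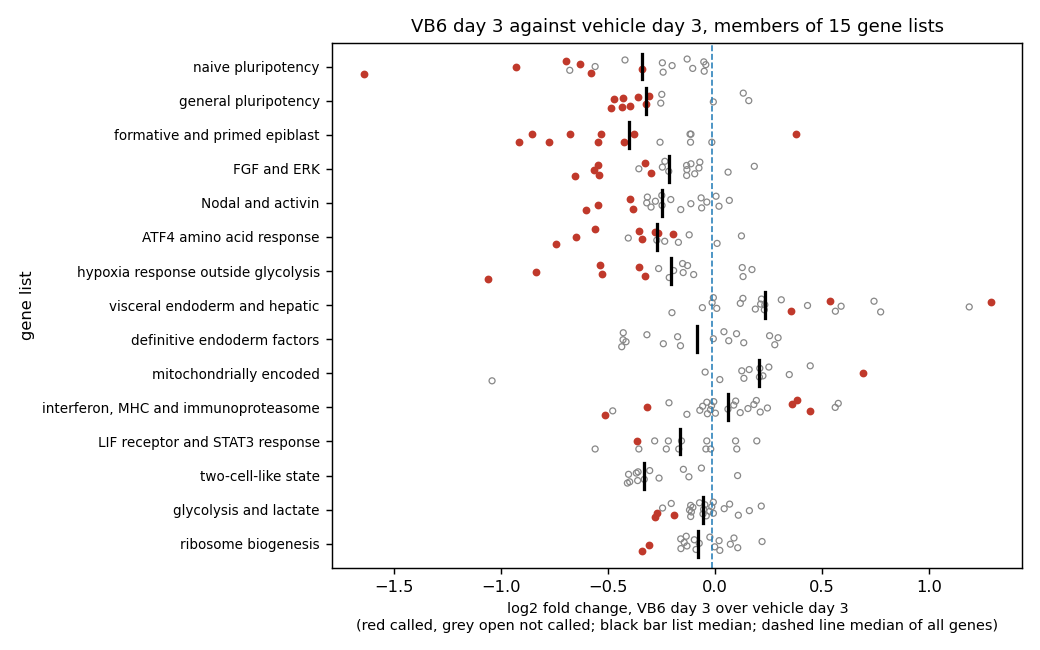
Each point is the log2 fold change of 1 gene, VB6 day 3 over vehicle day 3 (horizontal axis), in 15 of the gene lists (rows), with list medians as black bars and the median of all genes dashed. Filled red points passed the threshold. The axis spans far less than that of the comparison with ES cells, and the medians of the general pluripotency and formative lists lie to the left of 0.

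Lists with more calls lower than higher included those of pluripotency and of the formative epiblast. Of the 13 general pluripotency genes 8 were lower with VB6 and none higher, with a median log2 difference of -0.32 against -0.01 over all genes. Sox2 was at 195, 244 and 213 CPM with vehicle and 165, 154 and 163 CPM with VB6, a log2 difference of -0.44 ± 0.10 (SE) (edgeR adjusted p = 0.016). All 3 VB6 libraries were below all 3 vehicle libraries. Cripto was at 569, 588 and 556 CPM with vehicle, a difference of -0.40 ± 0.07 (SE). Pou5f1 at -0.25 ± 0.08 (SE) and Nanog at 0.16 ± 0.08 (SE) did not pass. Of the 17 naive genes 6 were lower and none higher, among them Tet2 at -0.70 ± 0.12 (SE) and Tcl1 at -0.63 ± 0.11 (SE). Of the 14 formative genes 8 were lower and 1 higher, with a median of -0.40. Lef1 was at 48.6, 65.2 and 51.5 CPM with vehicle and 27.5, 30.1 and 30.01 CPM with VB6, a difference of -0.91 ± 0.13 (SE), so the rise from ES was smaller with VB6. Cldn6 was the one that was higher, at 0.38 ± 0.06 (SE). Dnmt3a was at 484, 551 and 489.6 CPM with vehicle, a difference of -0.42 ± 0.06 (SE), and Myc at 35.9, 42.8 and 36.1 CPM, a difference of -0.65 ± 0.12 (SE). The DNA methylation list had 4 lower and none higher. Of 15 ATF4 genes 8 were lower and none higher, Trib3 at -0.56 ± 0.13 (SE) among them. Of 16 hypoxia genes 6 were lower and none higher. Epas1 was at 23.4, 34.5 and 28.97 CPM with vehicle, a difference of -1.06 ± 0.13 (SE), and Vegfa was at -0.54 ± 0.10 (SE). Calls that were lost when 1 library was left out were those of Sox2 (without VB6 replicate 1 or 2 or vehicle replicate 2) and Trib3 (without VB6 replicate 1 or 3 or vehicle replicate 2).

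The endoderm lists are to be read against all genes, of which 1.48% were higher and 2.77% lower with VB6. Of 22 visceral endoderm genes 3 were higher with VB6 and none lower, with a median of 0.23 against -0.01 over all genes. Ttr was at 11.4, 7.696 and 8.83 CPM with vehicle and 13.5, 12.1 and 14.9 CPM with VB6, a difference of 0.54 ± 0.14 (SE) (edgeR adjusted p = 0.025). Apob was at 80.6, 66.1 and 83.5 CPM with vehicle, a difference of 0.35 ± 0.10 (SE) (edgeR adjusted p = 0.049). The third, named after its value was seen, was Apoa1, for an apolipoprotein, at 1.29. Afp was at 1.18, 0.421 and 1.16 CPM with vehicle and 2.49, 1.83 and 2.12 CPM with VB6, a difference of 1.19 ± 0.38 (SE) that did not pass. None of the 16 definitive endoderm genes passed in either direction, which is near the background, as 4.25% of all genes passed. Sox17 was at -0.43 ± 0.18 (SE), Foxa2 at -0.24 ± 0.15 (SE) and Gata6 at -0.32 ± 0.12 (SE). Of the glycolysis genes named here Hk2 (-0.19 ± 0.05 (SE)) and Pfkp (-0.27 ± 0.07 (SE)) were lower with VB6, and Ldha (-0.11 ± 0.05 (SE)) and Pkm (-0.10 ± 0.06 (SE)) did not pass. Of the vitamin B6 genes Alpl was lower, at -0.59 ± 0.10 (SE), and Pdxk (-0.07 ± 0.08 (SE)) did not pass. Ep300 (-0.03 ± 0.06 (SE)) did not pass. Of the 27 interferon, MHC and immunoproteasome genes 3 were higher with VB6 than with vehicle and 2 lower, with a median of 0.06. The 2 lower genes were Irgm1 and Irf1, at -0.51 ± 0.12 (SE) and -0.32 ± 0.09 (SE), and both had risen from ES by several fold. Calls lost when 1 library was left out were those of Ttr (without VB6 replicate 1 or 3 or vehicle replicate 2 or 3), Apob (without VB6 replicate 1, 2 or 3 or vehicle replicate 1, 2 or 3), Hk2 (without VB6 replicate 1, 2 or 3 or vehicle replicate 2 or 3), Pfkp (without VB6 replicate 1 or 3 or vehicle replicate 2 or 3), Irgm1 (without VB6 replicate 1 or 2 or vehicle replicate 1 or 2) and Irf1 (without VB6 replicate 1, 2 or 3 or vehicle replicate 2 or 3), and that of Apob was also lost with the replicate number as a block (0.36, edgeR adjusted p = 0.056).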

How the data were processed

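RNA-seq of 21 libraries was used as deposited tables of expected counts, TPM and FPKM per gene. The authors' deposited expected counts are estimates that need not be whole (24.7 to 28.0% of values per library were not) and were rounded before testing. The authors' deposited TPM values served as an alternative scale, and the deposited FPKM values were not tested. The build is mm10 per the submitters' processing notes; which aligner, counter and annotation were used is not stated by labels or headers. The labels' protocols describe total RNA and also speak of small RNA, so the library type is uncertain.

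Genes were filtered with filterByExpr (18901 kept) and fitted over all 21 libraries with 7 group means, TMM factors and edgeR 4.0.16's quasi-likelihood test (R 4.3.3), with Benjamini-Hochberg adjustment over all genes. CPM are counts divided by each library's TMM-scaled size. The SE of a log2 fold change is the absolute value of that change divided by the square root of the test's F statistic. Where a group has few counts, it does not give the counting error. Alternatives used DESeq2 1.42.0 and limma 3.58.1. The test was also run on simulated data in which few genes differed and all genes shared a common spread. As most genes passed here, that run does not show how often calls in these data are false. Coordinates are those of GENCODE M21 on mm10, and promoters those of RefSeq, GRCm38.p6. Genes with at most 3 counts in a group are given as count ratios with 95% intervals, or as bounds at 3 counts over the group, which cover counting error only.

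The named genes are the 10 largest called rises and falls against ES (protein-coding, at least 5 CPM, no overlap), up to 5 of smallest p and 2 not passing per list, a set of fixed names, and the 5 largest in each direction against vehicle. The members and lists were chosen with earlier results of these data known. Some genes that the rule names are not reported here, though they are counted in their lists.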

Additional observations from a re-analysis of the deposited data

Results flagged for a closer look

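The 10 genes below had the 5 largest differences in each direction between VB6 and vehicle at day 3 among called protein-coding genes with at least 5 CPM in the higher group and no overlap between groups. Some genes outside these limits differed more. The differences test whether the change from ES cells differs between the 2 day 3 groups. All 10 passed edgeR's quasi-likelihood test, and they were ranked by size, so their sizes are a description. Higher with VB6 were Mcoln3, for an endosomal channel, at 0.79 on the log2 scale, Crabp2, for a retinoic acid binding protein, at 0.70, mt-Nd3, for a complex I subunit, at 0.69, Sycp3, for a meiotic chromosome protein, at 0.67, and Pts, for an enzyme of tetrahydrobiopterin synthesis, at 0.67. Lower were Cilp2 at -1.59, Sall3, for a zinc finger factor, at -1.17, Enox1 at -1.09, Epas1, for HIF-2 alpha, at -1.06, and Siah2, for a ubiquitin ligase, at -1.03. Sycp3, Cilp2 and Epas1 kept their call under every alternative run. Crabp2, Pts, Enox1 and Siah2 lost theirs without VB6 replicate 1 or vehicle replicate 2, among others, Mcoln3 on both TPM scales and Sall3 on log2(TPM + 0.1). mt-Nd3 did not pass without vehicle replicate 3 (0.51, edgeR adjusted p = 0.056), and mitochondrial transcripts were 2.65 to 2.94% of counts with VB6 and 2.34 to 2.57% with vehicle. The part of that share in the value was not tested.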

How the results depend on the processing

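Against ES cells, 4081 genes were higher on the log2(TPM + 1) scale, and a fold threshold of 1 or 2 on the log2 scale left 2592 or 1078 higher and 2624 or 914 lower. Against vehicle, 421 were higher with DESeq2, 473 with the GC and length offset, 562 (831 lower) without the filter, 848 (1143 lower) with the compared groups alone, and 57 (220 lower) or 49 (151 lower) on log2(TPM + 1) or log2(TPM + 0.1). Leaving out single libraries gave 51 to 302 higher and 140 to 586 lower. With the GC and length offset, Utf1 (0.26), Bak1 (0.22), Rrp9 (0.28), Bmpr2 (-0.48), Itgb1 (-0.13), Grb10 (-0.11) and Hsd17b7 (-0.21) passed opposite to a main value that had not passed. On the TPM scales Lifr against vehicle was at 0.19 and 0.20 and did not pass. The causes were not tested. Of 291 named results against ES 256 kept direction and side of the threshold in all alternatives, and of 80 against vehicle 25 did. Same-numbered libraries did not deviate together, and the main fit used no pairing. This cannot exclude that same-numbered libraries were handled together. With the replicate block 6256 genes were higher and 6057 lower against ES, and 271 and 500 against vehicle. A count of 0 in a library allows up to 0.139 to 0.174 CPM with VB6.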
